A study of Xenopus laevis with 12 samples.

Results

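Sox3 sites new at the neural plate border are regions in which the transcription factor Sox3 was detected by ChIP-seq at stage 11.5 and no peak was listed at or near the same position at stage 9. The members were chosen by the peak positions of both lists. A stage 11.5 peak on an assembled chromosome counted as new where no stage 9 peak overlapped it or lay within 1000 bp. Of the 4337 stage 11.5 peaks on the 18 assembled chromosomes, 965 were new (22.3%, Wilson 95% interval 21.0 to 23.5%). Another 3034 overlapped a stage 9 peak, and 338 had a stage 9 peak within 1000 bp without overlap. These 3372 peaks are called the other stage 11.5 peaks here. With limits of 5 and 10 kb 637 and 445 sites were new. With overlap as the only criterion 1303 were new, and 1337 when only stage 9 peaks at or above the median score were kept. Of the 2019 peaks with an area (score multiplied by width, divided by 1000) of at least 50, 369 were new.

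The explants were animal pole tissue of Xenopus laevis, from embryos labelled wild type. At stage 11.5, 3 libraries came from explants that received Sox3, Wnt8a and Chordin mRNA, and 3 control libraries from explants that received Wnt8a and Chordin mRNA only. At stage 9, 3 libraries came from blastula explants with Sox3 mRNA and 3 control libraries from blastula explants for which no treatment is labelled. The Sox3 was made from injected mRNA with a Myc tag and was precipitated through that tag, so the measurement is of the tagged protein in whole explants and not of endogenous Sox3 in the embryo. Only 1 list of peaks per stage was analysed, without values per library, so no spread between replicates and no depth are known. The stage 11.5 list carries the word "unity1" in its header, which leaves unstated how many of the 3 libraries entered it, whereas at stage 9 the header speaks of all replicates. Peaks are not replicates, and the choice of members rests on the contrast of the lists. All values below are therefore descriptions without a test, and their intervals cover counting error only.

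Sox3 belongs to the SoxB1 group of the Sox family, transcription factors that bend DNA through an HMG box and usually act with a partner factor. SoxB1 factors are expressed in the pluripotent cells of the blastula and later in the neural plate. They can bind sites in closed chromatin and are therefore often described as pioneer factors. The neural plate border lies between the neural plate and the future epidermis and gives rise to the neural crest and the cranial placodes. In animal pole explants it can be induced with a Wnt ligand together with the BMP antagonist Chordin. Distal regulatory sites of developmental genes often lie in introns or between genes, while promoters mark the start sites of transcription.

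New sites lay at a median distance of 8939 bp from the nearest stage 9 peak (95% interval of the median 7718 to 9713 bp), with quartiles of 3459 and 18735 bp. The distances ran from 1007 to 177000 bp, and 225 sites were over 20 kb away. Around the limit, the 3 new sites just beyond 1000 bp were at 1007 bp (chr5L:7997677-7997948, score 219), 1008 bp (chr2L:105024760-105024815, score 448) and 1011 bp (chr2L:127944720-127944838, score 1000). The 3 other peaks just within 1000 bp, and so not new, were at 994 bp (chr9_10S:192137-192199, score 371), 988 bp (chr5L:108426975-108427192, score 243) and 984 bp (chr9_10L:77103453-77103519, score 1000). No gap in the distances separates the members from the other peaks at the limit, so the limit of 1000 bp is a convention. The nearest stage 9 peaks had a median score of 522 and a median width of 217 bp, compared with 511 and 229 bp over the 115224 stage 9 peaks on the assembled chromosomes.

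**Figure D1:**
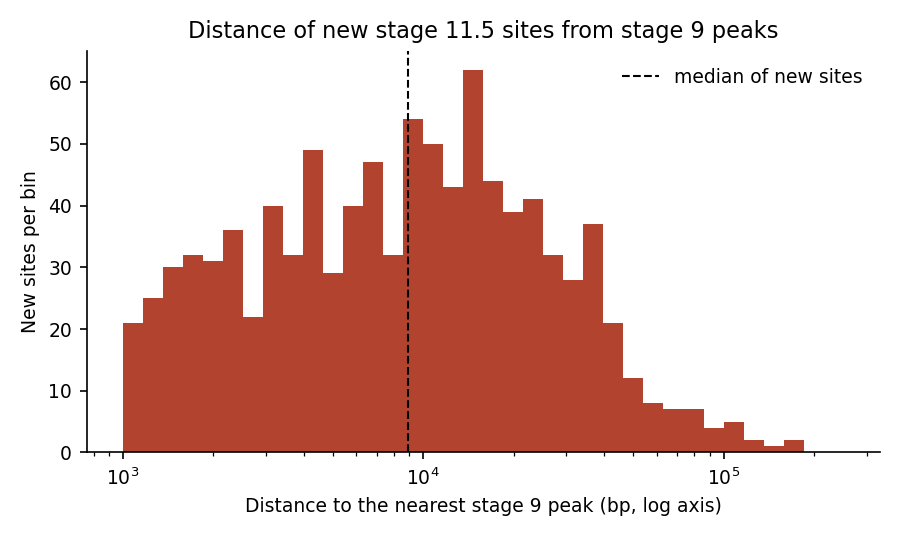
The histogram shows the distance of each of the 965 new sites to the nearest stage 9 peak (bp, log axis), as the number of sites per bin of equal log width, with the median marked by a dashed line. The distances run from 1007 to 177000 bp with a median of 8939 bp.

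The most remote site, chr5L:157265779-157265868, was 177000 bp from any stage 9 peak. It was a promoter peak 698 bp upstream of its nearest transcription start site (TSS), with a width of 90 bp and a score of 366. The next was an intergenic peak at chr2L:163523373-163523442, at 165166 bp, with a score of 287 and an area of 20.1. The lowest area in the stage 11.5 list was 19.99, so that peak was close to the smallest the list holds. The next, chr8L:51014844-51014966, was an intergenic peak 123 bp wide at the maximum score of 1000, 142129 bp from a stage 9 peak. The score is that of the peak caller, a whole number that grows with the signal over the control libraries.

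By genomic feature, 507 new sites were intergenic (52.5%, Wilson 95% interval 49.4 to 55.7%), compared with 41.5% (39.8 to 43.1%) of the other stage 11.5 peaks. Introns held 261 new sites (27.0%, 24.3 to 29.9%) and 35.1% (33.5 to 36.7%) of the other peaks. Promoters held 99 new sites (10.3%, 8.50 to 12.3%) and 13.4% (12.3 to 14.6%) of the other peaks. Of the 369 new sites with an area of at least 50, 6.78% were at promoters. The share of other peaks given here was not restricted by area, so it cannot be set against this value. Exons held 64 new sites (6.63%), and transcription termination sites 34 (3.52%), with 5.49% and 4.57% of the other peaks. The intervals of the intergenic and intronic shares do not overlap between new and other peaks, those of the promoter shares overlap narrowly at 12.3%, and those of exons and termination sites overlap. In the stage 9 list on the same chromosomes, the intergenic share was 41.6%, the intronic share 41.2% and the promoter share 8.57%, a value inside the interval of the new sites.

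The larger intergenic share was found within ranges of peak width and of score. Among peaks narrower than 150 bp, 52.9% of 782 new sites and 39.7% of 1583 other peaks were intergenic, and among wider peaks 50.8% of 183 (Wilson 95% interval 43.6 to 58.0%) and 43.0% of 1789 (40.8 to 45.3%), with overlapping intervals. Below the maximum score the shares were 46.3% of 712 new sites and 39.7% of 3032 other peaks, and at the maximum 70.0% of 253 and 57.4% of 340. The promoter share did not keep 1 order over the ranges of width. It was 8.95% of new and 15.0% of other peaks under 150 bp, but 15.8% (Wilson 95% interval 11.3 to 21.8%) of new and 12.0% (10.5 to 13.5%) of other peaks from 150 bp upwards, with overlapping intervals. Below the maximum score it was 13.1% (10.8 to 15.7%) of new sites and 14.1% (13.0 to 15.4%) of other peaks, also overlapping. At the maximum it was 2.37% (1.09 to 5.08%) of new sites and 6.76% (4.55 to 9.95%) of other peaks, with intervals that overlap narrowly.

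The features also varied with the distance from stage 9 binding. Intergenic sites made up 43.0% of the 328 new sites over 1 to 5 kb from a stage 9 peak, 53.4% of the 412 sites over 5 to 20 kb away and 64.9% of the 225 sites beyond 20 kb. The first of these shares (Wilson 95% interval 37.7 to 48.4%) was close to the 41.8% (40.1 to 43.6%) of overlapped peaks. The larger intergenic share was therefore not found in the nearest class of new sites. The promoter share was 13.7%, 10.7% and 4.44% over the same classes. Introns held 31.4%, 26.0% and 22.7%. The 338 peaks with a stage 9 peak within 1000 bp but no overlap had the largest promoter share (19.8%) and exon share (10.9%) of the 5 distance classes, compared with 12.7% and 4.88% where the peaks overlapped. Among peaks without overlap, the share within 5 kb of a TSS fell with distance, from 54.1% of those up to 1 kb from a stage 9 peak to 44.2%, 31.1% and 21.8% of the new sites over 1 to 5 kb, over 5 to 20 kb and over 20 kb away. Overlapped peaks stood outside this order, with 39.6% within 5 kb of a TSS. How far the spacing of the stage 9 peaks sets these shares was not tested.

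**Figure D2:**
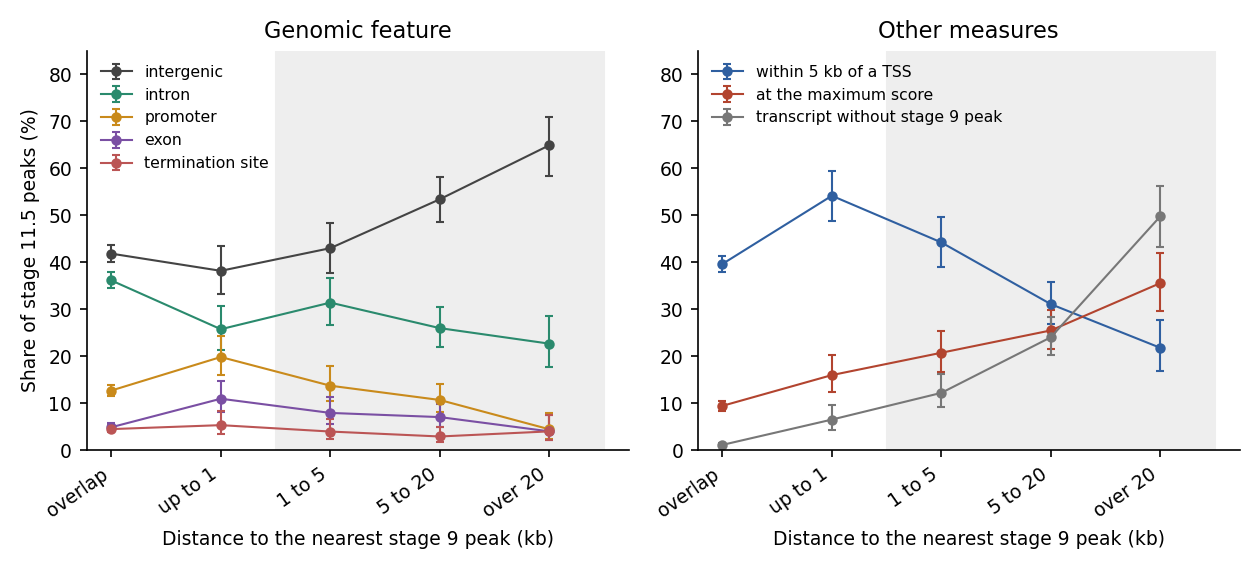
Shares of stage 11.5 peaks on assembled chromosomes (%) are plotted by distance to the nearest stage 9 peak (kb), with Wilson 95% intervals as bars and the 3 classes of new sites shaded. Between the class of 1 to 5 kb and that of over 20 kb the intergenic share went from 43.0 to 64.9%, the share within 5 kb of a TSS from 44.2 to 21.8% and the share at the maximum score from 20.7 to 35.6%.

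New sites were also farther from a TSS. The median distance was 10074 bp (95% interval 8973 to 11189 bp), compared with 7704 bp (7141 to 8293 bp) for the other stage 11.5 peaks and 11050 bp for the stage 9 list. This did not hold for the new sites over 1 to 5 kb from a stage 9 peak, with a median of 7230 bp (5109 to 9258 bp). The median was 10065 bp for those over 5 to 20 kb away and 17403 bp for those beyond 20 kb. Within 5 kb of a TSS lay 322 new sites (33.4%, Wilson 95% interval 30.5 to 36.4%), 41.1% (39.4 to 42.7%) of the other peaks and 32.9% of the stage 9 peaks. The shares within 1 kb were 16.1% of new sites and 20.02% of other peaks, and those beyond 50 kb 15.1% and 10.3%. Of all new sites 48.5% lay upstream, and of those within 5 kb 45.0% (39.7 to 50.5%), with 48.5% (45.9 to 51.2%) of the other peaks within 5 kb.

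**Figure D3:**
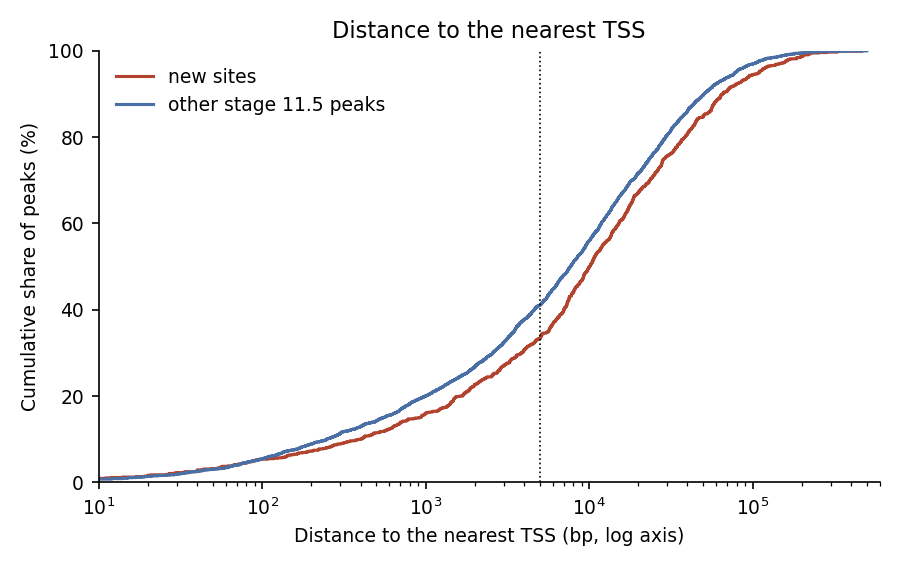
The cumulative share of peaks (%) is plotted against the distance to the nearest TSS (bp, log axis) for 965 new sites and 3372 other stage 11.5 peaks, with 5 kb marked by a dotted line. At 5 kb the curves stand at 33.4 and 41.1%, and the curve of the new sites stays below the other from 1 kb to 50 kb.

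The 99 promoter sites had their centres between 975 bp upstream and 724 bp downstream of the nearest TSS, with a median distance of 91 bp, and 62 were upstream. The class is one of nearness to a TSS and its bounds on either side are not stated, so these positions only describe it. The promoter sites were 97 bp wide in the median and had a median score of 344. Only 6 of the 99 reached the maximum score (6.06%, Wilson 95% interval 2.81 to 12.6%), compared with 177 of the 507 intergenic sites (34.9%, 30.9 to 39.2%) and 46 of the 261 intronic sites (17.6%, 13.5 to 22.7%). Of the 5 promoter sites of largest area, chr3L:115129609-115130160, was 552 bp wide with a score of 514 and lay 342 bp upstream of a TSS, 5284 bp from a stage 9 peak. The site at chr3S:7607648-7607923 was 276 bp wide and at the maximum score, where its area is a lower bound, so that the order of these sites by area is not settled. It lay 287 bp upstream of its TSS and 14779 bp from a stage 9 peak. The site at chr3L:4471265-4471516, also at the maximum score, was 252 bp wide and 665 bp upstream. The other 2 were centred almost on their TSS. The peak at chr8S:75768379-75768682 was 304 bp wide with a score of 519, 11 bp upstream, and that at chr5L:22940306-22940487 was 182 bp wide with a score of 733, 2 bp upstream.

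Of the 261 intronic sites, 72 (27.6%, Wilson 95% interval 22.5 to 33.3%) lay in a first intron, compared with 36.3% (33.7 to 39.1%) of the 1183 other intronic peaks and 29.97% of the 47458 intronic stage 9 peaks. From the nearest TSS they were 9336 bp away in the median. For 130 of them (49.8%) the intron belonged to another transcript than the one with the nearest TSS. The share was much the same for the other intronic peaks (50.8%) and the intronic stage 9 peaks (49.0%). A peak in an intron is therefore not thereby assigned to the transcript whose intron it lies in. Only transcript identifiers were compared, so the 2 transcripts can belong to the same gene. Exonic sites were closer to a TSS (median 1468 bp) and intergenic sites farther away (median 18199 bp, highest 468650 bp).

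New sites were narrow. Their median width was 91 bp (95% interval 87 to 94 bp), with quartiles of 70 and 130 bp, compared with 158.5 bp (154 to 164 bp) and quartiles of 100 and 247 bp for the other stage 11.5 peaks. Widths under 150 bp were found for 81.0% of new sites and 46.9% of other peaks. At the same time their scores were higher, with a median of 456 (424 to 481) compared with 346 (336 to 353), and 253 new sites (26.2%, Wilson 95% interval 23.5 to 29.1%) were at the maximum compared with 10.1% (9.11 to 11.1%) of the other peaks. Below the maximum the median scores were 357.5 (348 to 374) for new sites and 322 (315 to 328) for other peaks. Peak calling had a minimum area, so a narrow peak is listed only with a higher score than a wide one needs. Scores were not compared at equal width, and the part of this minimum in the difference was not tested. By area the order was the opposite of that by score, with a median of 36.2 for new sites and 48.7 for other peaks. An area under 30, in the lowest range of the list, was found for 39.3% of new sites and 25.2% of other peaks. These measures come from the list that the rule used, so they only describe the members.

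The narrow width was already present in the 338 peaks that had a stage 9 peak within 1000 bp without overlap, which were 96 bp wide in the median, compared with 169 bp for overlapped peaks. The higher score and smaller area were not particular to new sites either. These 338 peaks had a median score of 387.5 (353 to 412), compared with 342 (332 to 350) for overlapped peaks. At the maximum score were 16.0% and 9.43%, and the median areas were 32.4 and 51.2. Within the new sites the median width was 95 bp over 1 to 5 kb from stage 9, 91 bp over 5 to 20 kb and 85 bp beyond 20 kb, while the median score was 399.5, 474.5 and 514 and the share at the maximum score 20.7%, 25.5% and 35.6%. Widths differed little between features, with medians from 88 bp (intergenic) to 97 bp (promoter). Scores differed more, from 343 in exons and 344 at promoters to 393 in introns, 530 in intergenic sequence and 657 at the 34 termination sites. Below the maximum, score and width were inversely related across new sites (Spearman's rho -0.45 over 712 peaks, compared with -0.25 over 3032 other peaks). Peaks are not independent replicates, and the minimum area set in peak calling removes narrow peaks of low score.

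**Figure D4:**
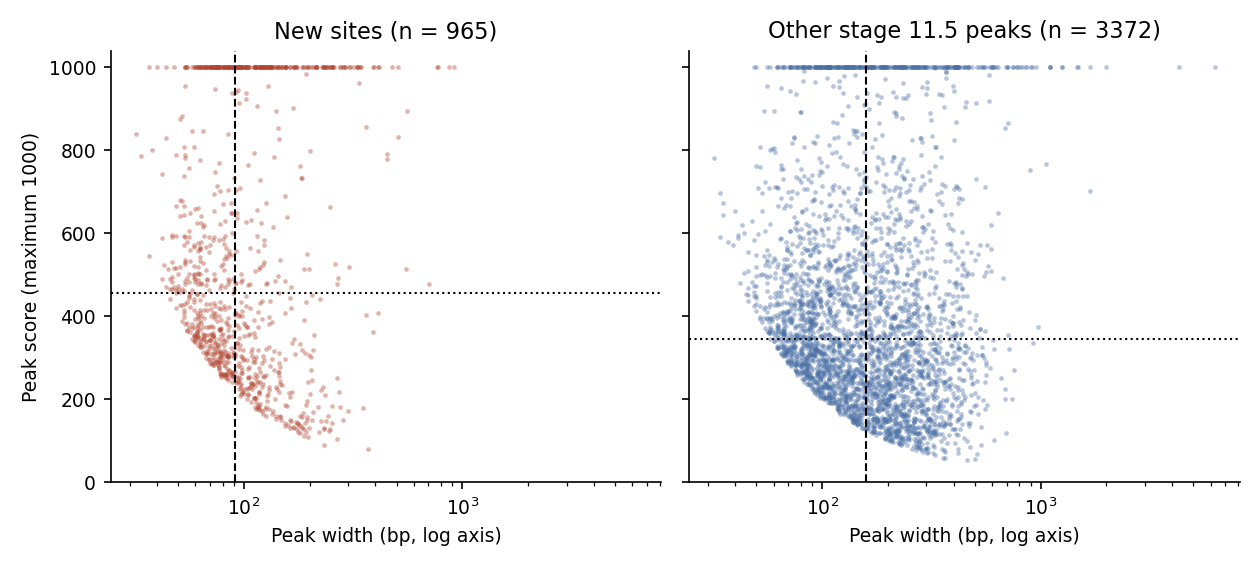
Peak score (maximum 1000) is plotted against peak width (bp, log axis) for new sites and other stage 11.5 peaks, 1 point a peak, with the median width as a dashed and the median score as a dotted line. The medians are 91 bp and 456 for new sites and 158.5 bp and 346 for the others; the curved lower edge is the lowest area in the list.

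The largest site by area was chr5S:59119298-59120209, an intergenic peak 912 bp wide at the maximum score, 4908 bp upstream of its nearest TSS. A second of the 5 largest, chr5S:59118043-59118812, was its neighbour, 770 bp wide and also at the maximum, 6234 bp upstream of the TSS. The closest stage 9 peak was 1030 bp from the latter, so this pair lay next to blastula binding and near the limit of the rule. The others were chr2L:148229654-148230526 (873 bp wide, 1981 bp downstream of a TSS), chr5L:123244420-123245196 (777 bp wide, 3992 bp upstream) and chr2L:101610529-101611036 (508 bp wide, 13689 bp upstream). All 5 were intergenic and at the maximum score, where the area is a lower bound. Only the last was remote from stage 9 binding, at 120137 bp. The sites of 912, 873 and 777 bp were also the 3 widest. The 2 narrowest, both on chromosome 7S, were 32 bp (chr7S:87786529-87786560, score 839, in intron 1 of 15) and 34 bp wide (chr7S:61775379-61775412, score 787, intergenic).

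Most new sites stood alone. When new sites on a chromosome with gaps of at most 10 kb were joined into runs, 824 sites had no new neighbour and 141 (14.6%, Wilson 95% interval 12.5 to 17.0%) fell into 53 runs. The share was 6.30% with 1 peak kept per group within 1000 bp, 6.32% below the maximum score, 8.65% without runs of 3 or more and 26.8% with an area of at least 50. Of these runs, 39 held 2 sites, 6 held 3, 4 held 4, 2 held 5, and the others held 9 and 10. The other stage 11.5 peaks, joined in the same way, were in runs for 28.3% (26.8 to 29.8%). They are more numerous, and the part of their number in this share was not tested. Neighbours within a run were separated by a median of 676.5 bp, and 52 of the 88 gaps were at most 1000 bp. A run spanned between 277 and 17101 bp, with a median of 1511 bp. In 31 runs every site was intergenic, and in 23 every site was at the maximum score. A stage 9 peak lay inside 5 of the 53 runs, between sites that were each over 1000 bp from it.

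Scores were higher in runs. Of the 141 sites in runs, 59.6% (Wilson 95% interval 51.3 to 67.3%) were at the maximum score, compared with 20.5% (17.9 to 23.4%) of the 824 lone sites, and their median area was 87.0 compared with 32.1. At the maximum score the area is a lower bound, so the median of 87.0 is also a lower bound. The median width of sites in runs was 113 bp, and that of lone sites 89 bp. Sites in runs were intergenic for 63.1% (54.9 to 70.6%) compared with 50.7% (47.3 to 54.1%), and at promoters for 4.96% (2.43 to 9.89%) compared with 11.2% (9.19 to 13.5%). These intervals count each site separately, although the 141 sites came from 53 runs of neighbours, so they are too narrow for sites in runs. Whether a run is 1 region of enrichment that the caller split was not tested. An other stage 11.5 peak lay within 10 kb of 98 new sites (10.2%), and the median distance to the nearest such peak was 239322 bp. Whether this share is low for lists of this size was not tested.

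The run with the most sites held 10 on chromosome 1L, chr1L:124786578-124799346. The first 7 went through introns 2, 3 and 4 of a transcript with 4 introns and into exon 5, and the last 3 lay at a termination site and in intergenic sequence beyond it. Widths ran from 62 to 304 bp, 7 of the 10 sites were at the maximum score, and the widest (chr1L:124792909-124793212) lay in intron 3. No stage 9 peak lay closer than 31006 bp, and neither of the 2 nearest transcripts had any stage 9 peak. The nearest other stage 11.5 peak was 604864 bp from the last site.

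The second run held 9 sites at chr6S:83633584-83650684, all intergenic and all nearest to the same transcript, listed as rna72330. Widths were 46 to 292 bp and 3 sites were at the maximum score. Its arrangement differed from that of the first run. The first 6 sites lay within 4691 bp and 10660 to 15210 bp from stage 9 binding, whereas the last 3 flanked a stage 9 peak that was itself overlapped by a stage 11.5 peak, at 1335 to 1905 bp from it. The transcript with the next most new sites was rna94917, with 7, all in the chromosome 1L run. The next 2 runs held 5 sites each, and the one of larger summed area (880 compared with 269) lay at chr6L:52643203-52651457, 109309 to 117421 bp from the nearest stage 9 peak. That run included a site 707 bp wide in intron 3 of 6 (chr6L:52645924-52646630, score 477, 590 bp from the TSS), and no stage 9 peak was assigned to its transcript. The other run of 5 sites, chr9_10S:73590949-73599079, was unlike it. All its sites were intergenic and 27954 to 32883 bp from a TSS, they lay 12359 to 20437 bp from stage 9 binding, and each had a transcript with stage 9 peaks.

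**Figure D5:**
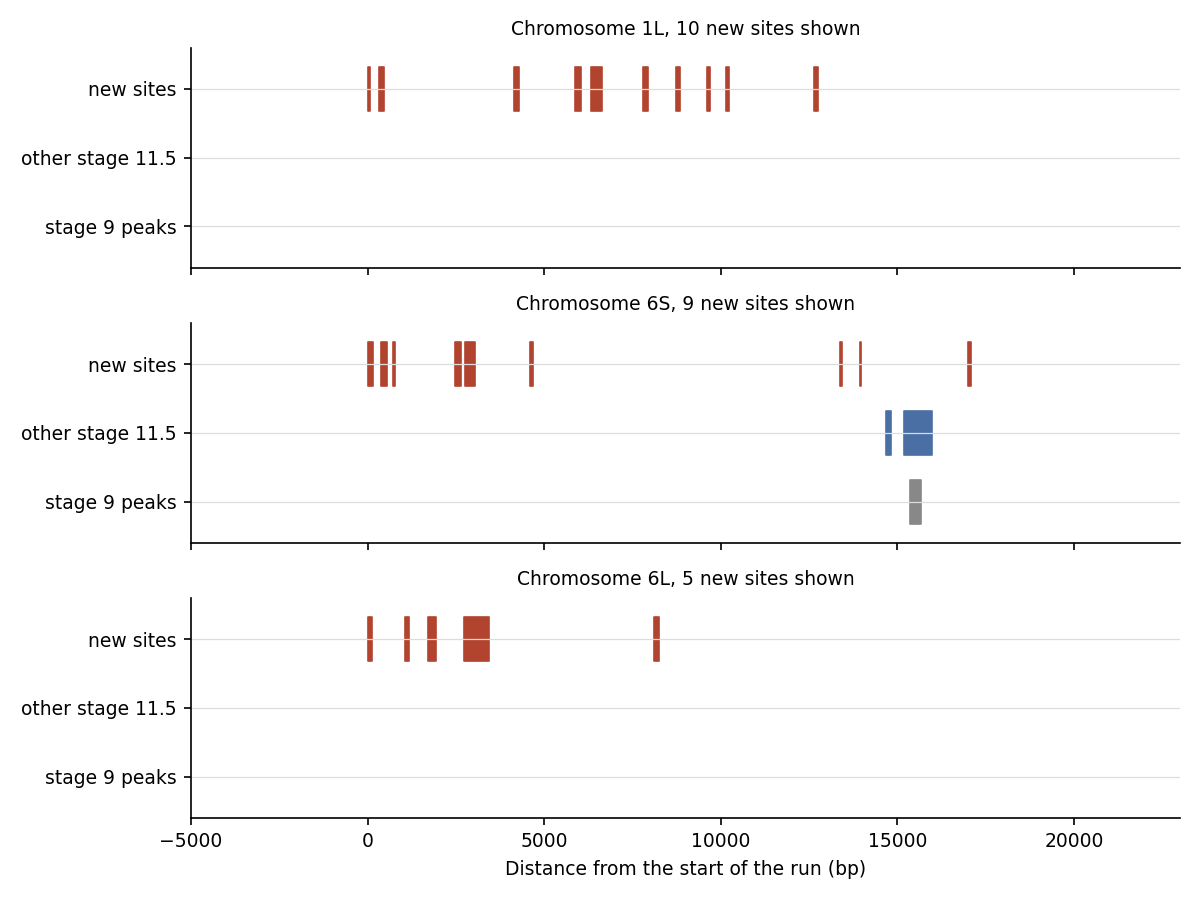
The runs of 10 and 9 new sites and, of the 2 runs of 5, the one of larger summed area are drawn to scale against the distance from the first site (bp), with bars for new sites, other stage 11.5 peaks and stage 9 peaks from 5000 bp before to 5000 bp after each run. Within these windows the runs on chromosomes 1L and 6L have no stage 9 peak, and the run on 6S has 1, overlapped by another stage 11.5 peak.

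The new sites were nearest to 868 transcripts, of which 805 (92.7%) had a single new site. The next question was whether these transcripts had Sox3 binding elsewhere at stage 9. For 714 sites (74.0%, Wilson 95% interval 71.1 to 76.7%) the transcript had at least 1 stage 9 peak at another position. It had 1 stage 9 peak for 185 sites (19.2%), 2 to 7 for 415 (43.0%) and 8 or more for 114 (11.8%), with a highest number of 28. For 251 sites (26.0%, 23.3 to 28.9%) the transcript had none. This share was 40.0% with a limit of 10 kb and 39.4% when only stage 9 peaks at or above the median score were kept. Among the other stage 11.5 peaks 1.66% had a transcript without a stage 9 peak, but these peaks have a stage 9 peak within 1000 bp by definition, so the shares cannot be set against each other. At the level of transcripts, 216 of the 868 had no stage 9 peak (24.9%), and 116 (13.4%, 11.3 to 15.8%) also had a stage 11.5 peak that was not new. The share of all annotated transcripts with a stage 9 peak was not measured. Whether the shares of new sites and their transcripts are high or low is therefore not known.

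Sites at transcripts with no or few stage 9 peaks were closer to their TSS. Without a stage 9 peak, their median distance to the TSS was 5086 bp (95% interval 3600 to 6613 bp), compared with 6198 bp, 14832 bp and 45616 bp for sites at transcripts with 1, with 2 to 7 and with 8 or more stage 9 peaks. Promoter sites made up 18.7% (Wilson 95% interval 14.4 to 24.0%), 12.43% (8.43 to 18.0%), 6.75% (4.71 to 9.58%) and 0.877% (0.155 to 4.80%) of these groups. Seen from the promoter sites, 47 of the 99 had a transcript without a stage 9 peak. The intergenic share went the other way, from 41.8% to 67.5%. How much sequence each TSS is nearest to was not measured, and its part in these values was not tested. Median widths lay between 88 and 95 bp and median scores between 420.5 and 478 over the 4 groups, with overlapping intervals.

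A transcript without a stage 9 peak did not always mean remote stage 9 binding. Of the 251 sites, 73 had a stage 9 peak within 10 kb that was assigned to a different transcript, and 178 (18.4% of all new sites, Wilson 95% interval 16.1 to 21.0%) had neither. The list gives transcripts and not genes, and a stage 9 peak can be assigned to another transcript of the same gene, so the 251 sites, at 216 transcripts, can include sites of genes with a blastula peak. For 621 new sites (64.4%) the nearest stage 9 peak was assigned to the same transcript as the site. Of the 868 transcript identifiers, 0 matched the gene table used here, so no gene is named, and the neural plate border genes studied in the paper were not analysed here.

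Xenopus laevis carries 2 related sets of chromosomes from an ancient hybridization, named L and S. New sites made up 22.1% of the 2501 stage 11.5 peaks on L chromosomes (Wilson 95% interval 20.5 to 23.8%) and 22.4% of the 1836 on S chromosomes (20.6 to 24.4%). Promoter shares were 10.3% and 10.2%, intergenic shares 51.2% and 54.4%, median widths 92 and 89 bp and shares at the maximum score 26.0% and 26.5%, on L and S respectively. A transcript without a stage 9 peak was found for 28.2% (24.6 to 32.1%) of sites on L and 23.1% (19.3 to 27.4%) on S. Single chromosomes ranged from 17.2% new on 4L (40 of 232) to 29.4% on 6L (68 of 231). Chromosomes 5L, 6L, 6S and 8S were at 27.0% or above, and 4L, 9_10L and 9_10S below 18.0%. The interval of 6L (23.9 to 35.6%) does not overlap those of 4L (12.9 to 22.6%), 9_10L (13.6 to 23.1%) and 9_10S (12.8 to 23.1%), while neighbours in the order overlap. These are the extremes of 18 ranked chromosomes, and the intervals are not adjusted for that choice or for runs of neighbouring sites.

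The lists hold called peaks only. A new site is a position at which no stage 9 peak was listed, and Sox3 binding at stage 9 below the calling threshold cannot be told apart from its absence. The stage 9 list held 26.6 stage 9 peaks for each stage 11.5 peak on the assembled chromosomes, and stage, induction and sequencing instrument differ together between the lists, so a gain between the stages cannot be told apart from these differences.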

How the data were processed

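Sox3 ChIP-seq peaks were analysed for 2 stages, each with 3 Sox3 and 3 control libraries. According to the methods and the submitters' processing notes, the authors used fastp for trimming and bowtie2 for alignment to Xenopus laevis genome 9.2, then called peaks with Genrich against the control libraries and annotated them with HOMER. Picard is also named there, with no role given. The Genrich settings in the methods include a minimum peak area, and the lowest areas in the lists lie close to it. The authors' deposited values are a peak score (whole numbers up to 1000), positions and the signed distance to the nearest TSS, which are given as other numbers in bp. Each stage has 1 list. Depth per sample is unknown. Which of the 3 stage 11.5 libraries enter that list is not stated in its header.

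Widths, areas and distances were computed in Python (version 3.11.15) using pandas 2.3.3, numpy 2.4.6 and scipy 1.17.1. Matplotlib 3.10.9 drew the plots. Distances are 0 for overlapping peaks and otherwise the start of one peak minus the end of the other. Coordinates are 1-based on build 9.2. Shares have Wilson 95% intervals and medians exact binomial 95% intervals. The distance and run functions were tested on simulated data. No test was run, since there is no value per library. The members, lists and named regions were chosen with earlier results of these data known. Named regions were the 5 sites of largest area, the 3 runs with the most sites (ties by summed area), 3 on each side of the limit, the 3 most remote, the 5 largest at promoters, the 3 widest and the 2 narrowest. Transcript identifiers were given only for the first 2 by number of new sites. The gene table is of assembly 10.1, and no genome sequence of build 9.2 was used here, so sequences and motifs were not analysed here. Alternatives changed the distance limit, the set of peaks, the TSS limit and the run gap.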

Additional observations from a re-analysis of the deposited data

Results flagged for a closer look

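A signal lay outside the comparisons above. On unplaced scaffolds, 469 of 963 stage 11.5 peaks (48.7%, Wilson 95% interval 45.6 to 51.9%) had no stage 9 peak overlapping or within 1000 bp, compared with 22.3% on the assembled chromosomes. For 327 of the 469 (69.7%) no stage 9 peak was listed anywhere on the scaffold. Of the 469 peaks, 230 were at the maximum score (49.0%, 44.5 to 53.6%), and their median width was 97 bp. The cause was not tested.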

How the results depend on the processing

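Of 60 comparisons of a result with an alternative, 28 stayed within 1.5 times the count or within the 95% interval of the value, and 32 moved. The number of new sites, 965 of 4337 peaks, was 637 with a limit of 5 kb and 445 with 10 kb. With an area of at least 50 it was 369, of only 2019 peaks. Among the counts that stayed within 1.5 times were 1303 with overlap only and 1337 with only stage 9 peaks at or above the median score. The promoter share, 10.3%, was 12.7% with overlap as the only criterion, 8.48% at 5 kb, 8.02% of 1434 sites with unplaced scaffolds, 14.1% with only stage 9 peaks at or above the median score, 6.78% with an area of at least 50 and 13.1% below the maximum score. Of the 1434 sites, 308 on scaffolds had no nearest TSS and could not be at promoters, and without them the share was 10.2% of 1126 (chosen after seeing the data). The share within 5 kb of a TSS, 33.4%, was 38.8% with overlap only, 27.8% at 5 kb, 28.3% at 10 kb, 38.4% with higher-scoring stage 9 peaks and 29.5% with an area of at least 50, and at TSS limits of 1, 10 and 50 kb it was 16.1%, 49.8% and 84.9%. The median width, 91 bp, was 96 bp with higher-scoring stage 9 peaks, 120 bp with an area of at least 50 and 86 bp below the maximum score. The share in runs, 14.6%, was 17.6% with overlap only, 26.8% with an area of at least 50, 6.32% below the maximum score, 6.30% with 1 peak per group within 1000 bp, 8.65% without runs of 3 or more (chosen after seeing the data), and 9.84% and 19.4% with run gaps of 1 and 50 kb. The share of sites whose transcript had no stage 9 peak, 26.0%, was 21.0% with overlap only, 33.1% at 5 kb, 40.0% at 10 kb, 30.7% of 1126 sites with a nearest TSS when unplaced scaffolds were included, and 39.4% with higher-scoring stage 9 peaks. Fewer peaks enter by construction at stricter limits, areas and scores. By construction too, the share within a TSS limit follows that limit, and the share in runs follows the run gap. The share in runs also falls by construction when 1 peak is kept per group or runs of 3 or more are left out. Limits of 5 and 10 kb keep sites farther from stage 9 peaks, where more transcripts had none. That share was 12.2% over 1 to 5 kb, 24.0% over 5 to 20 kb and 49.8% beyond 20 kb. Leaving out lower-scoring stage 9 peaks can only take stage 9 peaks away from a transcript. These settings are among the comparisons that moved, and the cause of the remaining changes was not tested.

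No paired analysis was possible because the values are per stage and not per library, and leaving out single replicates was not possible either. Depth is unknown for both stages and limits every count of new sites.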
